A study of Mus musculus with 72 samples.

Results

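Eif2s3x, Ddx3x, Pbdc1, 5530601H04Rik and Mid1 are 5 X-linked genes that keep some transcription from the inactive X chromosome (Xi). They were followed here in all 72 libraries of a mouse cell culture series. They were chosen by name, out of 22556 genes in the files, 908 of them X-linked, and an allelic value was used only where at least 20 fragments had been assigned to an allele. The lowest number behind any allelic value of a member was 252 fragments.

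The libraries hold chromatin-associated RNA (ChrRNA-seq), which is RNA still bound to chromatin and mostly newly made. The cells were female F1 mouse embryonic stem cells (mESCs) with one Dom (129S) and one Cast X chromosome, in which doxycycline switches on Xist on a chosen X. In iXist-ChrX_Dom the inducible promoter sits on the Dom X, so Dom is Xi and Cast is the active X (Xa). In iXist-ChrX_Cast it sits on the Cast X, so Cast is Xi. Wild-type (WT) cells and SmcHD1 knockout (KO) clones of both lines carried the inducible Xist. Apart from the uninduced mESCs of the KO clones (ES), all were sampled under doxycycline while they differentiated towards neural precursor cells (NPCs). SmcHD1 is a chromosomal protein that joins Xi late and keeps many of its genes silent.

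The 72 libraries gave 65 replicates, since 7 replicates consisted of a pair of libraries. In iXist-ChrX_Dom there were 12 WT replicates and 14 of KO clone A3. In iXist-ChrX_Cast there were 14 WT replicates, 13 of KO clone D5 and 12 of KO clone G6. Days 2, 3, 5 and 7 were replicated, whereas days 15, 21, 35 and (in iXist-ChrX_Dom) 52 had 1 replicate per clone, so these late days were pooled. The Dom knockout is thus a single clone. Depth ran from 9344054 to 31216487 fragments per library for iXist-ChrX_Dom. For iXist-ChrX_Cast it ran from 13211298 to 31107643. Nothing in the labels says that replicates came from separate thaws or derivations, so p-values measure only the spread between these samples. The authors passaged the cells kept for long-term days. Late replicates of a clone may therefore be serial samples of 1 culture, which the labels do not settle. Smchd1 RNA did not separate the genotypes. It lay at 217 to 594 RPM (fragments per 1e6 fragments of the library) in induced A3 (median 517, n = 12) against 382 to 648 in Dom WT (median 549, n = 12). In induced D5 and G6 it was 270 to 616 RPM (median 542, n = 22) against 360 to 709 in Cast WT (median 604, n = 14). The RNA therefore does not check the loss of the protein. The authors reported by western blot that SmcHD1 protein was absent from the KO clones.

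Markers of other cell types moved with time. Summed over 5 fibroblast genes, late replicates held 239 to 15925 RPM, against 3.78 to 28.6 RPM in ES and 6.72 to 17.03 RPM at days 2 and 3. Col1a1, Col1a2, Col3a1 and Postn made up this rise, whereas the fifth gene, Thy1, fell in Dom WT (mean 1.93 to 0.393 RPM), A3, and D5 and G6. The mESCs had been grown on fibroblast feeders, which the labels say were removed by pre-plating before differentiation. The sum over 6 mESC genes was 911 to 1338 RPM in ES and 2.72 to 152 RPM late. The sum over 6 NPC genes was 26.8 to 61.8 RPM in ES and 129 to 914 RPM late. Most of this rise came from Vim and Nes. In A3 their means went from 28.6 to 212 RPM and from 20.2 to 117 RPM between ES and the late days. Fabp7 rose from a low level. Mean Pax6 fell from 8.42 to 1.62 RPM in A3 and from 4.55 to 0.497 RPM in D5 and G6. In Cast WT Pax6 was at 1.29 RPM at days 2 and 3 and 1.47 RPM late. Sox1 and Sox2, which define NPCs and in the case of Sox2 also mESCs, were listed at 0 in all libraries. The part of other cell types in the results below was not tested. In bulk RNA, fewer cells of a type and less RNA per cell cannot be told apart.

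X inactivation silences most genes of one X in female cells, and genes that stay partly active on Xi are said to escape. The share of allele-assigned fragments that come from Xi, Xi/(Xi+Xa), is here called the ratio. It is near 0.5 when both alleles are equally active and 0 when Xi is silent. Eif2s3x encodes the gamma subunit of eIF2, which brings the initiator tRNA to the ribosome. Ddx3x encodes a DEAD-box RNA helicase that acts in translation initiation. 5530601H04Rik is a long non-coding RNA gene, and Pbdc1 is its neighbour. Mid1 encodes a microtubule-bound E3 ubiquitin ligase, and in C57BL/6 mice the gene spans the boundary of the pseudoautosomal region, where X and Y still recombine.

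In the mm10 coordinates of the count files all 5 genes lie on chromosome X. Ddx3x lies at X:13281021-13293983 on the plus strand and Eif2s3x at X:94188708-94212651 on the minus strand. 5530601H04Rik lies at X:105040853-105070124 on the minus strand and Pbdc1 at X:105079755-105117090 on the plus strand. They point away from each other from starts 9631 bases apart. Mid1 lies at X:169685198-169990797 on the plus strand, and at 305600 bases it is the longest of the 5. Fragments were counted over the whole gene, introns included. The promoters of the 4 genes with 1 listed start are shown because the Xi ratio of all 4 fell after induction. The last 2 also belong to the head-to-head pair, whose ratios diverged between genotypes over time in iXist-ChrX_Cast. Each promoter is shown as 300 bases, from 250 bases before the start to 50 after it, on the gene's own strand, 5′ to 3′. The source is RefSeq on GRCm38.p6, the patched release of mm10. Capitals mark each CpG. The windows are X:94212602-94212901 for Eif2s3x, X:13280772-13281071 for Ddx3x, X:105079506-105079805 for Pbdc1 and X:105070075-105070374 for 5530601H04Rik.
Eif2s3x: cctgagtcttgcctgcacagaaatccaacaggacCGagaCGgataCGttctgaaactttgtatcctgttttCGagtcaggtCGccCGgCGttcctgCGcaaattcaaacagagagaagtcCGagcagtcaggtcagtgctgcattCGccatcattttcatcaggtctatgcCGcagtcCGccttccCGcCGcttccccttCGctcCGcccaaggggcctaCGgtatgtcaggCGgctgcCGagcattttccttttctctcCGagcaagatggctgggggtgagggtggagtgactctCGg
Ddx3x: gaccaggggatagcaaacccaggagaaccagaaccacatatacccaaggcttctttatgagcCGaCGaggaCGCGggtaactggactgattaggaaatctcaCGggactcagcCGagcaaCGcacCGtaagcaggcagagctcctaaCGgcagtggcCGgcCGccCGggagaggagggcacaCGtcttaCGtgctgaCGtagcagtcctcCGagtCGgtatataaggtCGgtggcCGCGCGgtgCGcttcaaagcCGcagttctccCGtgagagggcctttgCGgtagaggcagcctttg
Pbdc1: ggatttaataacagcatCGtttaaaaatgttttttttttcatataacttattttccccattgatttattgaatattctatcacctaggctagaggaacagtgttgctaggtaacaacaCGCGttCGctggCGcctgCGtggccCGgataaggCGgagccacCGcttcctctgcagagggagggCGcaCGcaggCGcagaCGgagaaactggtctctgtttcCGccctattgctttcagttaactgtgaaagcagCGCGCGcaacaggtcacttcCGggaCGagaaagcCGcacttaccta
5530601H04Rik: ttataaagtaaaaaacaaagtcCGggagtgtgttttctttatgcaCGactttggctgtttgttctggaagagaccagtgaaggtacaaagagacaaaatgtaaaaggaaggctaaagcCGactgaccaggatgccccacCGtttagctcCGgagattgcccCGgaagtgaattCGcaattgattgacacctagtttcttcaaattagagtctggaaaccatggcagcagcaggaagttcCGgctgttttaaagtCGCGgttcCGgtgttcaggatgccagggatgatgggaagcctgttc
Eif2s3x held 21 CpGs in this window, Ddx3x 25, Pbdc1 20 and 5530601H04Rik 11. The median over 32851 promoters was 7. As many or more were found in 24.8% of all promoters for Eif2s3x, 18.4% for Ddx3x, 26.5% for Pbdc1 and 41.4% for 5530601H04Rik. Mid1 has 3 listed starts, with 2, 6 and 13 CpGs in their windows, so its promoters range from CpG-poor to CpG-rich. These counts describe the sequence and say nothing of its methylation, which was not measured.

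Which genes could be read by allele differed between the lines. In iXist-ChrX_Cast all 5 members had both alleles in uninduced cells. In iXist-ChrX_Dom only Eif2s3x and Ddx3x did. There the share of allelic fragments assigned to the Dom allele was at most 0.0193 for Pbdc1 in any replicate. It was at most 0.0160 for 5530601H04Rik and 0.0171 for Mid1, also in uninduced A3 cells. The absence of the Dom allele was general on that side of Xist. The authors list a recombination event in iXist-ChrX_Dom among the reasons why some genes could not be read by allele. Its part in these values was not tested. Of 126 genes beyond the Xist start (position 103460372) with enough allelic fragments in every iXist-ChrX_Dom replicate, 120 had an uninduced ratio of at most 0.1, with a median of 0.00696 over the 126. Before Xist the median was 0.514, and 186 of 188 genes were measurable. In iXist-ChrX_Cast 125 of 126 genes beyond Xist were measurable. For these 3 genes iXist-ChrX_Dom therefore gives total RNA only.

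Per length of gene, Ddx3x was by far the most abundant. Its mean level over all replicates was 42.5 RPKM (RPM divided by the gene's length in kilobases) in iXist-ChrX_Dom and 46.1 RPKM in iXist-ChrX_Cast. The other 4 genes lay between 2.07 and 2.75 RPKM in iXist-ChrX_Dom and between 2.10 and 3.41 RPKM in iXist-ChrX_Cast. The long Mid1 gene nonetheless gave the most allelic fragments, from 2058 to 69362 per replicate in iXist-ChrX_Cast, so counting error is smallest there.

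Late in Cast WT the mean Eif2s3x ratio was 68.1% of the uninduced ratio, which was measured in the KO clones, beside 60.3% for Mid1 and 19.4% to 29.5% for the other 3 genes. The late Mid1 replicates, at 45.5% to 86.0%, overlapped those of Eif2s3x, and at days 2 and 3 and days 5 and 7 the mean of Mid1 was the higher one. In iXist-ChrX_Cast WT the Eif2s3x ratio was 0.406 and 0.479 at day 2, then 0.328, 0.395 and 0.392 at day 3. It was 0.257, 0.294 and 0.343 at day 5 and 0.262, 0.330 and 0.340 at day 7. At days 15, 21 and 35 it was 0.337, 0.368 and 0.434, from 138 of 409, 157 of 427 and 198 of 456 allelic fragments. The lowest values thus came at days 5 and 7, and the late replicates lay among those of days 2 and 3. The mean was 0.400 ± 0.0540 (SD, n = 5) at days 2 and 3, 0.304 ± 0.0389 (n = 6) at days 5 and 7 and 0.380 ± 0.0495 (n = 3) later.

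In iXist-ChrX_Dom WT the Eif2s3x ratio was lower throughout. It was 0.314 and 0.323 at day 2, 0.288 and 0.277 at day 3, 0.215 and 0.138 at day 5 and 0.158 and 0.146 at day 7. From day 15 to day 52 it was 0.216, 0.163, 0.235 and 0.246. All 4 late replicates were above both of day 7. The late means of 0.215 ± 0.0367 (SD, n = 4) in Dom WT and 0.380 ± 0.0495 (n = 3) in Cast WT did not overlap in their replicates. The difference of -0.175 (SE 0.0496, Dom minus Cast, with day in the fit) had an unadjusted p of 0.0327 and an adjusted p of 0.377 in the limma fit, in which 0 of 207 genes passed. Which X is Xi and which clone was used cannot be told apart in this comparison.

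Ddx3x reached lower ratios than Eif2s3x. Its uninduced ratio was 0.467 to 0.480 in D5 and G6 and 0.505 to 0.523 in A3. In iXist-ChrX_Cast WT its ratio was 0.310 and 0.334 at day 2 and 0.206, 0.252 and 0.225 at day 3. It was 0.0759, 0.121 and 0.126 at day 5, and 0.0761, 0.0927 and 0.0987 at day 7. At days 15, 21 and 35 it was 0.0766, 0.105 and 0.0942. From day 5 on, the values no longer separated by day. In iXist-ChrX_Dom WT the ratio ran from 0.383 and 0.340 at day 2, through 0.0931 and 0.0911 at day 7, to 0.119, 0.0862, 0.0857 and 0.0201 at days 15, 21, 35 and 52. The last value stands apart from the others and rests on 26 Xi fragments of 1292. The late means were 0.0778 ± 0.0416 (SD, n = 4) in Dom WT and 0.0920 ± 0.0143 (n = 3) in Cast WT, a fitted difference of 0.0051 with an adjusted p of 0.909.

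Pbdc1 was the only member whose uninduced ratio was well below an even share. It was 0.334 and 0.364 in D5 and 0.346 in G6, the 351st of 395 X-linked genes in order of the ratio. In Cast WT it was 0.256 and 0.251 at day 2 and 0.162, 0.189 and 0.178 at day 3. It reached 0.0490, 0.0544 and 0.0821 at day 7 and was 0.0509, 0.0719 and 0.0988 at days 15, 21 and 35. The day 7 and late replicates overlapped, and all lay below every replicate of days 2 and 3.

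5530601H04Rik, across the shared upstream region, kept a larger Xi share. Its uninduced ratio was 0.496 and 0.450 in D5 and 0.514 in G6. In Cast WT it was 0.340 and 0.390 at day 2 and 0.280, 0.300 and 0.341 at day 3. It was 0.0973, 0.133 and 0.191 at day 7 and 0.0976, 0.187 and 0.147 at days 15, 21 and 35. At each of these days the mean of the 5530601H04Rik ratio was above that of Pbdc1.

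Mid1 stood apart from the other members. Its Xi (Cast) allele dominated before induction, with ratios of 0.892 and 0.870 in D5 and 0.906 in G6, first of 395 genes. In Cast WT the ratio was 0.9001 and 0.908 at day 2, 0.761, 0.605 and 0.749 at day 3, 0.545, 0.349 and 0.569 at day 5, and 0.547, 0.449 and 0.602 at day 7. It was 0.764, 0.439 and 0.404 at days 15, 21 and 35. The day 2 replicates were alike, whereas the lowest and the highest replicate of days 3, 5 and 7 had 95% Wilson intervals that did not overlap (for day 7, 0.441 to 0.456 and 0.594 to 0.610). Such intervals leave out the spread between cultures and treat fragments as independent. Fragments amplified by PCR are not, so the intervals may be too narrow even for counting error. The mean uninduced ratio of 0.889 lay just inside the upper limit of 0.9 set for measurable genes.

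**Figure D1:**
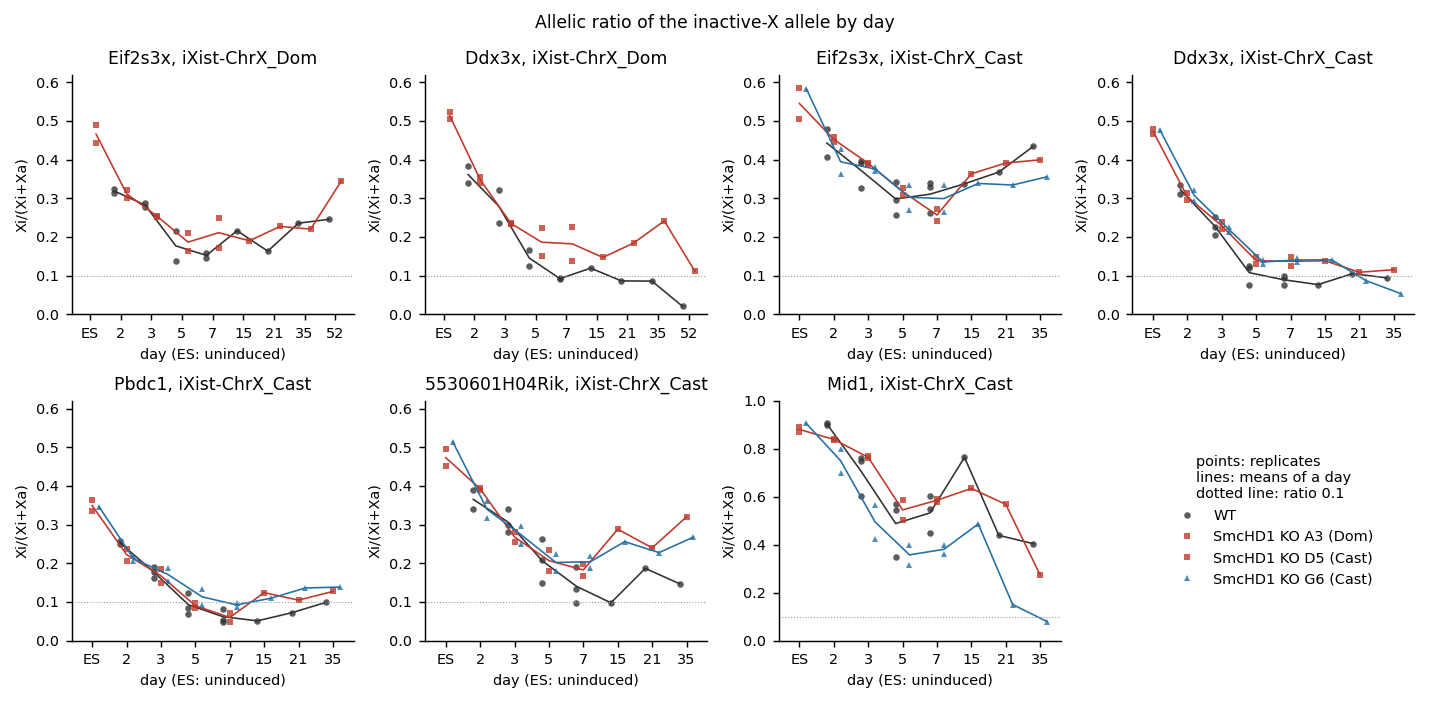
Ratio Xi/(Xi+Xa) (vertical axis) by day of induction (horizontal axis, ES is uninduced) for each gene and line that could be read by allele. Points are replicates, lines join day means, the dotted line is 0.1, and the Mid1 panel has a longer axis. Late Eif2s3x means lie above those of days 5 and 7, differences that did not pass the test. From day 7 on, Ddx3x and Pbdc1 stay near or below 0.1 in WT. KO replicates of 5530601H04Rik sit above WT late.

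Between days 2 and 3 and days 5 and 7 the ratio fell for every measured member in WT. In Dom WT, where 90.3% of genes fell, Eif2s3x fell by 0.136 (SE 0.0326, limma, adjusted p = 0.000931) and Ddx3x fell by 0.202 (SE 0.0353, adjusted p = 8.68e-05). With only the Dom WT replicates whose chromosome 6 alleles were balanced, Eif2s3x had an adjusted p of 0.0921 for the same difference. In Cast WT, where 92.3% fell, all 5 members did. The difference was -0.274 for Mid1, -0.167 for Ddx3x, -0.157 for 5530601H04Rik, -0.130 for Pbdc1 and -0.0956 for Eif2s3x (adjusted p = 0.0146). Without replicate 2 of day 2 the Eif2s3x adjusted p was 0.0504. A fall of the ratio was thus shared with nearly all X-linked genes. For Mid1 the allele counts given below show Xi fragments in a similar range over all days in Cast WT. As its ratio fell, its Xa fragments were thus already higher at days 5 and 7 than at day 2, and not only late.

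Ratios also fell early in the KO clones, and whether by as much as in WT was not tested. In A3, where 77.4% of genes fell, Ddx3x fell by 0.107 (adjusted p = 0.0227) and Eif2s3x differed by -0.0835 (adjusted p = 0.0538). The Ddx3x adjusted p lay between 0.0653 and 0.0765 without replicate 1 or 2 of day 2, replicate 1 of day 5 or replicate 1 of day 7. In D5 and G6, where 90.7% fell, all 5 members fell. The difference was -0.245 for Mid1, -0.127 for Ddx3x, -0.119 for 5530601H04Rik, -0.109 for Eif2s3x and -0.105 for Pbdc1. A3 also had lower ratios at days 2 and 3 than before induction for both measured members, among 94.9% of genes. In D5 and G6 this held for 4 of 5 members, among 99.4% of genes. Mid1 differed by -0.147 there (adjusted p = 0.0582).

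After day 7 no member passed the test in any of the 4 groups. The share of all genes that did was 0.485% in Dom WT, 0.513% in A3, 0.613% in Cast WT and 5.14% in D5 and G6. The Eif2s3x differences were nevertheless positive in each, at 0.0505 in Dom WT (adjusted p = 0.589), 0.0468 in A3 (0.989), 0.0754 in Cast WT (0.603) and 0.0697 in D5 and G6 (0.0868). The last value passed with the variance trend left out (adjusted p = 0.0197). Late Eif2s3x ratios came to 46.2% of the uninduced KO value of the line in Dom WT, 52.7% in A3, 68.1% in Cast WT and 65.2% in D5 and G6. For Ddx3x the same figures were 15.1%, 33.3%, 19.4% and 22.6%.

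The late ratios placed the members high among X-linked genes. In Cast WT, Mid1 was 3rd of 351, Eif2s3x 6th, 5530601H04Rik 10th, Ddx3x 14th and Pbdc1 17th, where the median gene was at 0.00457 and 13 genes exceeded 0.1. In Dom WT, Eif2s3x was 9th of 220 and Ddx3x 33rd, where the median was 0.00674 and 20 genes exceeded 0.1. In D5 and G6 the order over 344 genes was Mid1 5th, Eif2s3x 6th, 5530601H04Rik 9th, Pbdc1 32nd and Ddx3x 42nd, with 49 genes above 0.1. Ddx3x had a ratio of 0.107 ± 0.0331 (SD, n = 6) there.

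Most neighbouring genes did not share these levels. Klhl15, 46.2 kb from Eif2s3x, had a late WT ratio of 0.00151 in iXist-ChrX_Dom and 0.00216 in iXist-ChrX_Cast. On its other side Zfx, which encodes a zinc finger transcription factor, had 0.180 in Dom WT but 0.00887 in Cast WT. Usp9x, a deubiquitinase gene 210 kb from Ddx3x, had 0.0225 and 0.0127. Atrx, a chromatin remodeller gene on the far side of Pbdc1, had 0.00226, and Hccs, 374 kb from Mid1, 0.0231. In each case apart from Zfx in Dom WT the member's own ratio was several times higher. Pbdc1 and 5530601H04Rik, which flank each other, had late Cast WT ratios of 0.0738 and 0.144.

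The genes with the most similar ratios over all replicates were found elsewhere on the chromosome. For Eif2s3x these were Xk, Nono and Ddx3x in iXist-ChrX_Dom, with mean absolute differences of 0.0480, 0.0571 and 0.0584 over 26 replicates (median over the other genes, 0.149). In iXist-ChrX_Cast they were Las1l, Morf4l2 and Apool, at 0.0356, 0.0722 and 0.0877 over 39 replicates (median 0.281). For Ddx3x they were Nkap, Otud5 and Uba1 (0.0402 to 0.0465) in iXist-ChrX_Dom and Eda2r, Ogt and Mmgt1 (0.0215 to 0.0286) in iXist-ChrX_Cast. Huwe1, Gprasp1 and Uba1 were nearest to Pbdc1 (0.0294 to 0.0317) and Nkap, Taf1 and Ogt to 5530601H04Rik (0.0536 to 0.0621). Mid1 had no close match, since its nearest gene, Slc25a5, differed by 0.186 on average.

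The comparison of KO with WT asks whether these genes give more RNA from Xi when SmcHD1 is lost. At days 2 and 3 no gene passed in either line, of 230 in iXist-ChrX_Dom and 358 in iXist-ChrX_Cast, with 14 and 28 genes at an unadjusted p under 0.05. Among the members the differences (KO minus WT) at that time lay at -0.0183 for Eif2s3x and -0.0293 for Ddx3x in iXist-ChrX_Dom.

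At days 5 and 7 no member passed. In iXist-ChrX_Dom, where 9.61% of 229 genes did, Ddx3x differed by 0.0656 (SE 0.0260, adjusted p = 0.200) and Eif2s3x by 0.0342 (SE 0.0264, adjusted p = 0.515). In iXist-ChrX_Cast, where 0.836% of 359 genes did, Ddx3x came closest. Its WT ratios were 0.0759 to 0.126 (median 0.0957, n = 6) and its KO ratios 0.126 to 0.148 (median 0.139, n = 8), so the groups only touched. The difference was 0.0394 (SE 0.0113, adjusted p = 0.0667). It passed with the variance trend left out (adjusted p = 0.0309) and without WT replicate 3 of day 5 (0.0415).

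At days 15 and later 5530601H04Rik had a higher ratio in the KO clones. Cast WT ratios were 0.0976, 0.187 and 0.147 at days 15, 21 and 35, from 44 of 451, 47 of 252 and 42 of 286 allelic fragments. D5 ratios were 0.288, 0.240 and 0.320, from 163 of 566, 75 of 313 and 97 of 303. G6 ratios were 0.256, 0.228 and 0.268, from 112 of 438, 91 of 400 and 255 of 951. All 6 KO replicates lay above all 3 WT replicates, and both clones contributed. The difference was 0.123 (SE 0.0288, limma, adjusted p = 0.0401), in a comparison where 11.9% of 336 genes were called, all of them higher in KO. The call was kept when the WT day 21 replicate was left out but not without any of the other 8 replicates, where the adjusted p ran from 0.0506 to 0.218 and the difference from 0.0970 to 0.131. Taken alone D5 gave 0.139 (adjusted p = 0.123) and G6 0.107 (adjusted p = 0.146).

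The allele counts show which allele moved. The 5530601H04Rik Xi allele gave 1.87, 2.08 and 1.78 RPM in late WT, against 6.45, 3.71 and 4.62 in D5 and 4.83, 3.19 and 4.53 in G6. The means were 1.91 ± 0.153 (SD, n = 3) and 4.56 ± 1.12 (n = 6). The Xa allele gave 12.2 ± 4.46 RPM in WT and 12.5 ± 2.23 in KO. Xi fragments were 1.29 higher on the log2 scale in KO (SE 0.487, edgeR's quasi-likelihood test, adjusted p = 0.0396), where 21.9% of 475 genes passed and the median gene differed by 1.19. The call was lost without any 1 of 7 of the 9 replicates (adjusted p 0.051 to 0.169), the exceptions being WT and D5 at day 21, and with library totals in place of TMM (0.0905).

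**Figure D2:**
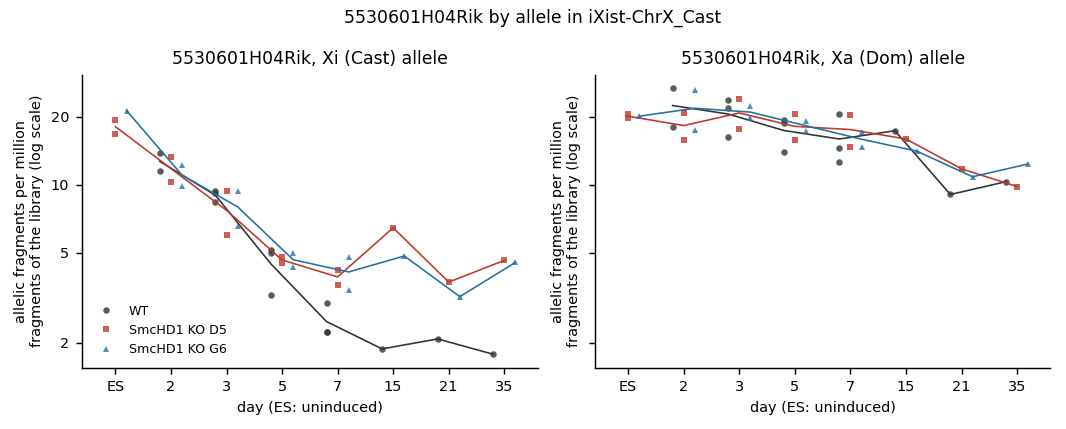
5530601H04Rik fragments in RPM of the library total (vertical axis, log scale) from the Xi (Cast, left) and Xa (Dom, right) allele in iXist-ChrX_Cast by day of induction. Points are replicates and lines join day means. After day 7 the Xi allele lies between 1.78 and 2.08 in WT and between 3.19 and 6.45 in the KO clones, whereas the Xa allele overlaps between genotypes.

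Pbdc1 showed the same order at a lower level. Late Cast WT ratios were 0.0509, 0.0719 and 0.0988, from 38 of 747, 57 of 793 and 103 of 1043 fragments. D5 ratios were 0.124, 0.105 and 0.127 and G6 ratios 0.110, 0.136 and 0.138. All KO replicates again lay above all WT replicates, with the highest WT and the lowest KO value close together. The difference was 0.0494 (SE 0.0131) with an adjusted p of 0.0536, just outside the threshold. It passed without the variance trend (0.0269) or with paired libraries as separate replicates (0.041).

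The other 3 members did not pass late in iXist-ChrX_Cast. Eif2s3x ratios were 0.334 to 0.399 in KO (median 0.359, n = 6) and 0.337, 0.368 and 0.434 in WT, a difference of -0.0161 (SE 0.0291, adjusted p = 0.704). Ddx3x ratios were 0.0535 to 0.141 in KO (median 0.112, n = 6) and overlapped those of WT on both sides, with a difference of 0.0152 (adjusted p = 0.606). Mid1 differed by -0.170 (SE 0.0964, adjusted p = 0.283). For Mid1 the clones were unlike each other. G6 alone against WT gave -0.297 (adjusted p = 0.0252) and D5 alone -0.0436 (adjusted p = 0.681).

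In iXist-ChrX_Dom neither measured member passed at the late days, where 4.85% of 206 genes did. Ddx3x ratios were 0.147, 0.184, 0.242 and 0.111 in A3 at days 15, 21, 35 and 52, each above the WT replicate of the same day (0.119, 0.0862, 0.0857 and 0.0201). The difference was 0.0931 (SE 0.0277, adjusted p = 0.106), and no alternative setting brought it under the threshold (0.0504 to 0.222). Eif2s3x ratios were 0.190, 0.227, 0.220 and 0.345 in A3 against 0.216, 0.163, 0.235 and 0.246 in WT, an overlap with a difference of 0.0305 (adjusted p = 0.520).

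**Figure D3:**
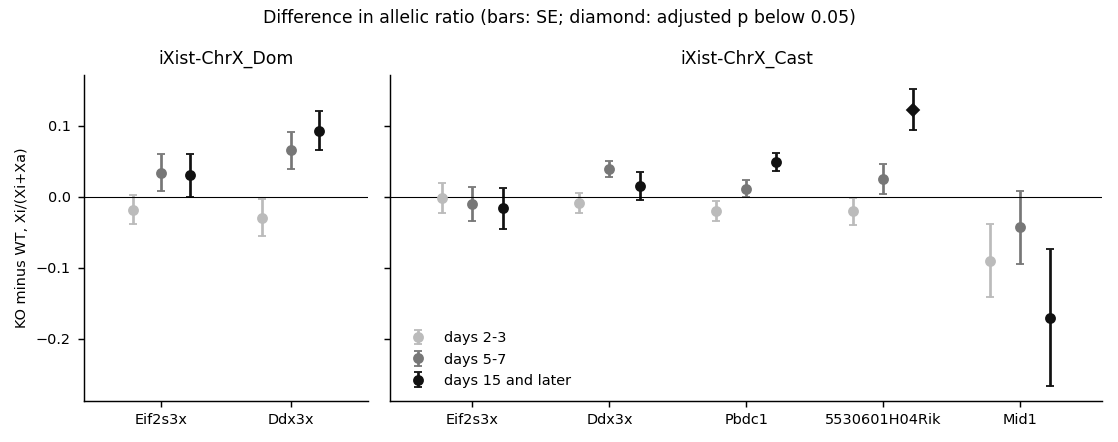
Difference in ratio, KO minus WT (vertical axis), for each gene at days 2 and 3, 5 and 7, and 15 and later. Bars are standard errors from limma, and a diamond marks an adjusted p under 0.05. The diamond belongs to 5530601H04Rik at the late days, at 0.123.

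Whether the genotypes diverged over time was tested directly, as the change from days 2 and 3 to the late days in KO minus that in WT. In iXist-ChrX_Cast 16% of 312 genes diverged, all towards higher ratios in KO, and 2 of 5 members were among them. For 5530601H04Rik the divergence was 0.143 (SE 0.0318, limma, adjusted p = 0.00297), and it stayed past the threshold in 6 of 6 other settings and 22 of 22 refits without a replicate. For Pbdc1 it was 0.0693 (SE 0.0193, adjusted p = 0.0147). This was lost without the WT day 15 replicate (0.0611, adjusted p = 0.0914) and with paired libraries as separate replicates (0.0905). Eif2s3x gave -0.0141 (adjusted p = 0.815), Ddx3x 0.0242 (0.558) and Mid1 -0.0800 (0.651). In iXist-ChrX_Dom, where 10.3% of 195 genes diverged, Ddx3x gave 0.122 (SE 0.0380, adjusted p = 0.0581) and Eif2s3x 0.0487 (0.454). The Ddx3x value passed without replicate 2 of WT day 2 (0.0453) or of WT day 3 (0.0433). Of the genes on either side of the pair, Zdhhc15 had late ratios of 0.00145 in WT and 0.00148 in KO. Atrx, on the other side, had 0.00202 to 0.00250 in WT and 0.0133 to 0.0719 in KO, so its genotypes did not overlap either (difference 0.0299, adjusted p = 0.224).

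Mid1 differed between the 2 KO clones of iXist-ChrX_Cast, a comparison chosen after their values were seen. The Xi allele gave 423 and 341 RPM at day 2 in D5, then 464 and 378 at day 3, 463 and 421 at day 5, and 486 and 369 at day 7. In G6 it gave 100.2 and 91.9 at day 2, 117 and 134 at day 3, 127 and 165 at day 5, and 123 and 137 at day 7. The clones did not overlap, and the highest G6 replicate was far below the lowest D5 replicate. Before induction the Xi allele already gave 405 and 323 RPM in D5 and 111 in G6. Over days 2 to 7, Xi fragments were 1.67 lower on the log2 scale in G6 (SE 0.155, edgeR, adjusted p = 1.17e-12), where 7.6% of 487 genes were lower in G6 and the median gene differed by -0.24. At days 2 to 7 WT replicates lay between the clones, at 201 to 321 RPM. The clones also differed in the median Cast share at the end of chromosome 6. Over all replicates it was 0.623 to 0.659 in D5, 0.470 to 0.516 in G6 and 0.463 to 0.489 in Cast WT. The part of this imbalance in the values of D5 was not tested.

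The Xa allele of Mid1 did not pass the same test between the clones at that time (-0.36, SE 0.207, adjusted p = 0.287, where 11.3% of genes passed). Total Mid1 RNA was 1.11 lower in G6 (SE 0.157, adjusted p = 0.000358), in a comparison where 9.09% of 15460 genes were lower in G6 (1668 higher and 1406 lower, or 1192 and 2261 with library totals). In that comparison 5 of 6 mESC marker genes were also lower in G6. Xist passed as 0.87 higher on the log2 scale in G6, where 10.8% of genes were higher. Before induction Xist was at 1009 RPM in the 1 G6 replicate and at 322 and 154 RPM in D5. The part of these genes in the result was not tested. The Mid1 ratio was 0.196 lower in G6 at days 5 and 7 (SE 0.0292, adjusted p = 0.0257), where 0.541% of 370 genes passed. Replicate 1 of G6 averages a pair of libraries that were unlike each other, at 0.452 and 0.178 on day 5 and 0.506 and 0.216 on day 7, whereas the pairs of D5 were alike (0.498 and 0.505, then 0.567 and 0.590). The labels do not say whether such pairs are runs or cultures, and with the libraries as separate replicates the call was lost (adjusted p = 0.067). It was also lost with no variance trend (0.0516). It was kept without replicate 1 of D5 day 5 but lost without any 1 of the other 7 replicates (adjusted p 0.0515 to 0.152). The ratio also differed by -0.179 at days 2 and 3 (adjusted p = 0.197), where 0.275% of genes passed, and by -0.253 late (adjusted p = 0.467). None of the other 4 members passed in the total RNA or allelic fragment comparisons of the clones. Same-numbered replicates of D5 and G6 deviated together in total RNA. With the replicate number as a block the calls over all genes rose from 3074 to 6709 for total RNA, from 45 to 91 for Xi and from 55 to 169 for Xa, while Mid1 differed by -1.10 in total RNA (adjusted p = 2.83e-05), by -1.66 on Xi (2.25e-30) and by -0.37 on Xa (0.0732). Against WT, total Mid1 RNA at days 2 to 7 was 0.47 higher on the log2 scale in D5 (adjusted p = 0.0391) and 0.61 lower in G6, a value of -0.61 (adjusted p = 0.0204), so the pooled KO value of 0.03 averages clones that moved in opposite directions.

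Over the time course the 2 alleles of Mid1 behaved differently. In Cast WT the Xa (Dom) allele gave 26.7 and 20.5 RPM at day 2 and 97.7, 295 and 347 RPM at days 15, 21 and 35. In D5 it went from 49.1 and 48.4 RPM before induction to 334, 287 and 628 RPM late, and in G6 from 11.5 RPM to 196, 682 and 1134 RPM. The Xi (Cast) allele stayed within 201 to 321 RPM in WT, 236 to 580 in D5 and 91.9 to 186 in G6 over all days. The rise of Xa was not confined to the late days. In Cast WT the mean ratio was 0.785 at days 2 and 3 and 0.510 at days 5 and 7. Replicate 1 of D5 at day 5 had 10712 of 21515 and 9827 of 19454 allelic fragments from Xi. Xa thus gave about as many there. Late against days 2 and 3, the Xa allele was 1.90 higher on the log2 scale in WT (SE 0.683, edgeR, adjusted p = 0.0439, among 24.7% of genes that rose), 2.36 in D5 (adjusted p = 0.00189, among 25.5%) and 3.49 in G6 (adjusted p = 0.00922, among 26.4%). The WT call was lost without any 1 of 6 of the 8 replicates (adjusted p 0.0682 to 0.118, the exceptions being day 15 and replicate 2 of day 3) and under library totals (0.0787). The Xi allele of Mid1 changed by 0.37 in WT (adjusted p = 0.378), by 0.32 in D5 and by 0.69 in G6 (adjusted p = 0.0484, among 1.08% of genes that rose). The last call was lost with DESeq2 (0.0986), with library totals (0.481) and with paired libraries as separate replicates (0.106).

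**Figure D4:**
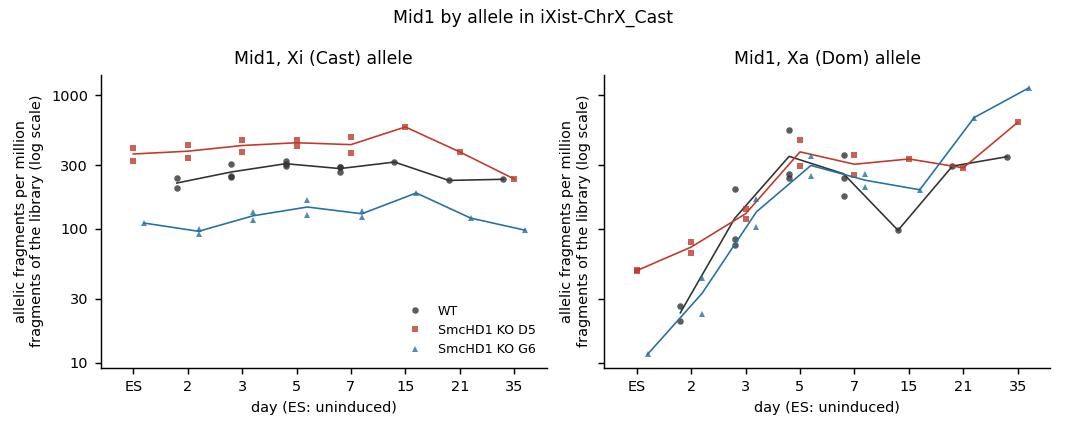
Mid1 fragments in RPM of the library total (vertical axis, log scale) from the Xi (Cast, left) and Xa (Dom, right) allele in iXist-ChrX_Cast by day of induction. Points are replicates and lines join day means. Over all days the Xi allele lies within 201 to 321 RPM in WT, 236 to 580 in D5, which overlaps WT late, and 91.9 to 186 in G6, while the Xa allele climbs from 11.5 to 79.9 RPM in ES and at day 2 to between 97.7 and 1134 RPM late.

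For the other members the alleles were also read apart. In Cast WT, where 74.7% of 462 genes fell and the median log2 change was -3.90, Xi fragments of Pbdc1, 5530601H04Rik and Ddx3x fell, with log2 changes of -2.48, -2.13 and -2.11. Eif2s3x Xi fragments differed by -0.91 (adjusted p = 0.124). In Dom WT, where 63.7% fell and the median was -2.71, Ddx3x fell by 2.28 (adjusted p = 9.02e-05) and Eif2s3x differed by -1.11 (adjusted p = 0.0532). With the balanced Dom WT replicates alone the Ddx3x value was -1.81 (adjusted p = 0.0986). These changes were smaller than that of the median gene in each group. In D5 (58.4% fell, median -2.36) Ddx3x and Pbdc1 fell, with values of -1.72 and -1.64. In G6 (63.2% fell, median -2.55) they fell too, with values of -2.27 and -1.42. 5530601H04Rik differed by -0.64 in D5 (adjusted p = 0.224) and -0.74 in G6 (adjusted p = 0.152).

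Xa fragments of Eif2s3x fell by 0.79 on the log2 scale in Cast WT, and those of Pbdc1 fell by 0.81, where 17.5% of genes fell. In Dom WT, where 20.7% of genes fell on Xa, Eif2s3x fell by 0.44 (adjusted p = 0.0388). This call was lost without any 1 of 6 of the 8 replicates (adjusted p 0.0566 to 0.106), the exceptions being day 21 and replicate 2 of day 2. The value was -0.66 (adjusted p = 0.0441) with the balanced and -0.26 (0.359) with the skewed Dom WT replicates, the latter being those with few Cast fragments at the end of chromosome 6. Ddx3x differed by 0.11 there. No gene passed between KO and WT on Xa in either line (0 of 465 and 0 of 475 in edgeR, against 9 and 23 in DESeq2), with Mid1 at 1.25 in iXist-ChrX_Cast (adjusted p = 0.253). Late Xi fragments between KO and WT in iXist-ChrX_Dom, where 13.3% of genes passed, differed by 1.11 for Ddx3x (adjusted p = 0.197) and 0.11 for Eif2s3x. In iXist-ChrX_Cast they differed by 0.81 for Pbdc1 (adjusted p = 0.275).

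Total RNA, read from all fragments, could be compared for all 5 genes in both lines. Eif2s3x went from 3.59 to 1.91 RPKM in Dom WT between days 2 and 3 and the late days, and from 3.76 to 1.61 RPKM in Cast WT. Pbdc1 went from 3.25 to 1.31 and from 4.64 to 1.85 RPKM. 5530601H04Rik went from 2.57 to 1.34 and from 2.71 to 1.21 RPKM, and Ddx3x from 46.8 to 33.1 and from 55.9 to 35.7 RPKM. Mid1 went the other way, from 2.11 to 3.57 and from 2.16 to 3.38 RPKM.

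In edgeR's quasi-likelihood test, late against days 2 and 3, 24.7% of genes fell in Dom WT, 22.7% in A3, 22.8% in Cast WT and 34.3% in D5 and G6, so a fall in itself was common. Eif2s3x fell in all 4 groups, with log2 changes of -0.65, -0.75, -0.91 and -0.81 in that order. Pbdc1 fell in all 4, with -1.06, -0.98, -1.02 and -0.83. With the skewed Dom WT replicates alone the Dom WT calls of both were lost, at -0.44 for Eif2s3x (adjusted p = 0.0995) and -0.70 for Pbdc1 (0.0745), against -0.81 and -1.52 with the balanced ones. 5530601H04Rik fell in 3, with -0.68 in Dom WT, -0.86 in Cast WT and -0.47 in D5 and G6, and differed by -0.38 in A3 (adjusted p = 0.0755). Ddx3x fell by 0.56 in D5 and G6 (adjusted p = 0.0128) and differed by -0.24, -0.54 and -0.34 in Dom WT, A3 and Cast WT, none of which passed. Scaling by library totals shifts the median of all genes by -0.268 to -0.391 in these comparisons, and Ddx3x then passed in A3 (-0.88) and Cast WT (-0.65). It also turned the balance of calls in 3 groups, from 4298 rises and 3693 falls to 3022 and 5365 in Dom WT, from 3995 and 3378 to 2561 and 5092 in A3, and from 3818 and 3399 to 2593 and 5001 in Cast WT. In D5 and G6, where falls were already the more common, it went from 4982 rises and 5162 falls to 3330 and 7276.

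Mid1 was the 1 member that rose in total RNA, and it did so in every group, beside 28.7% of genes in Dom WT, 26.9% in A3, 25.6% in Cast WT and 33.1% in D5 and G6. The log2 change was 1.02 in Dom WT (adjusted p = 0.0105), 1.20 in A3 (0.035), 0.95 in Cast WT (0.0181) and 1.82 in D5 and G6 (0.000475). Under library totals it was 0.76 in A3 (adjusted p = 0.0697) and 0.65 in Cast WT (0.0535). The A3 call was lost without replicate 1 of day 2 or either replicate of day 3 (adjusted p 0.0812 to 0.0932), and the Cast WT call without day 21 (0.0623). The Dom WT call was lost with the skewed Dom WT replicates alone (1.26, adjusted p = 0.0633) and was 0.58 (0.0093) with the balanced ones. The fibroblast sums given above were higher at the same days, and their part in the rise was not tested.

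**Figure D5:**
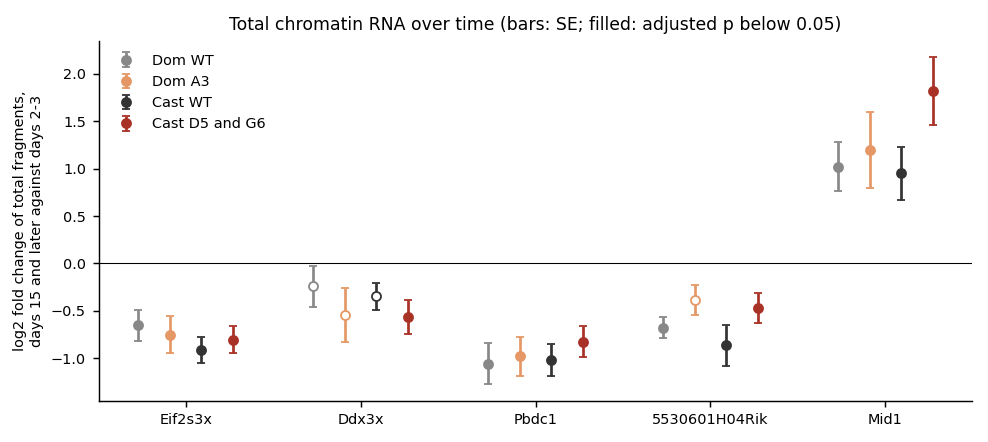
Log2 fold change of total fragments, days 15 and later against days 2 and 3 (vertical axis), for each gene in the 4 groups. Bars are standard errors from edgeR, and filled points have an adjusted p under 0.05. Mid1 is above 0 in all groups, between 0.95 and 1.82, and the other members are below 0.

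Between KO and WT no member passed in total RNA. In iXist-ChrX_Dom 0.803% of 15443 genes passed at days 2 to 7 and 0 of 15229 late (1622 at an unadjusted p under 0.05, 184 in DESeq2). In iXist-ChrX_Cast 0.381% of 15499 genes passed at days 2 to 7 and 0 of 14963 late (1898 unadjusted, 443 in DESeq2). Late in iXist-ChrX_Cast, 5530601H04Rik differed by 0.36 (adjusted p = 0.369) and Mid1 by 0.72 (adjusted p = 0.410). The higher Xi output of 5530601H04Rik was thus not matched by a detectable change of its total RNA at this depth and number of replicates.

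Other genes of the same pathways were counted for comparison. Of 8 genes of eIF2, its exchange factor eIF2B and Eif5, which act with Eif2s3x, total RNA fell over time for 3 in Dom WT, 5 in A3, 3 in Cast WT and 6 in D5 and G6, while 1 rose in Dom WT. Of all genes 24.7%, 22.7%, 22.8% and 34.3% fell in that order. Their median log2 changes were -0.38, -0.68, -0.43 and -0.56, and none passed between KO and WT. The Y-linked copies Eif2s3y and Ddx3y had at most 9 and 6 fragments in any replicate of these XX cells. Of 4 partner or related genes of Mid1, 2 could be tested by ratio late in iXist-ChrX_Cast. Of these 1 passed, beside 11.9% of all genes. This was Igbp1, which encodes a regulatory protein of phosphatase 2A that binds MID1. It had a late ratio of 0.0296 in Cast WT and 0.190 in KO (difference 0.160, SE 0.0167, limma, adjusted p = 0.00258). The other gene, Mid2, was at 0.00119 in WT and 0.00223 in KO. In iXist-ChrX_Dom, where 4.85% of all genes passed, only Igbp1 of the 4 could be tested. It had 0.00826 in WT and 0.289 in KO (difference 0.281, limma, adjusted p = 0.0125).

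Among 11 other genes known to escape in mouse, 10 could be tested late in iXist-ChrX_Cast, and 2 had higher ratios in KO, beside 11.9% of all genes. Kdm6a, a histone demethylase gene, went from 0.0451 in WT to 0.137 in KO (difference 0.0915, adjusted p = 0.0284). Utp14a, which acts in ribosome assembly, went from 0.107 to 0.195 (difference 0.0882, adjusted p = 0.0121). Kdm5c, also a histone demethylase gene, was at 0.163 and 0.187 (adjusted p = 0.561). The list's median difference was 0.0115, beside 0.00774 over all genes tested. In iXist-ChrX_Dom, where 4.85% of all genes passed, 0 of 5 did, with Utp14a at 0.155 and Kdm6a at 0.117, both with an adjusted p of 0.0508.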

How the data were processed

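Per the labels and file headers, the authors removed ribosomal reads (Bowtie2 2.3.2), aligned to a SNP-masked mm10 genome (STAR 2.4.2a), assigned alleles with SNPsplit and deposited strand-specific whole-gene counts of fragments (featureCounts 1.5.2). They also deposited Xi/(Xi+Xa) as a fraction. The Cast table equals the counts' ratios (18337 values). The 26 value columns of the Dom table carry Cast library names and were not used. Ratios were therefore computed from counts. Paired libraries (R1 and R2) were averaged for ratios and summed for counts.

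Ratios were tested with limma 3.58.1 (variance trend) over X-linked genes with at least 20 allelic fragments in every replicate and an uninduced ratio of 0.1 to 0.9. Day was a factor except in the fits over time within WT or KO cells of a line. Those fits compared groups of days without a day term, with clone as a factor for D5 and G6. Total and allelic counts were tested with edgeR 4.0.16 (TMM, quasi-likelihood, filter on low counts) in R 4.3.3. All p-values were adjusted by Benjamini-Hochberg over all genes tested, at a threshold of 0.05. Same-numbered replicates of D5 and G6 deviated together in total RNA on all 4 days (r = 0.390 to 0.806), so their comparison was also fitted with that number as a block, which the labels do not explain. DESeq2 1.42.0, other filters and scalings, single clones, replicate blocks and leaving out replicates were alternatives. Scripts were tested on simulated data.

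The members, gene lists and tests were chosen with earlier results of these data known. Besides the members, named genes are the 3 nearest by ratio, the flanking measured genes, and up to 4 per list.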

Additional observations from a re-analysis of the deposited data

Results flagged for a closer look

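The results below are given because groups differed by a direct test of the difference. In iXist-ChrX_Cast the difference in ratio between KO and WT grew from days 2 and 3 to days 15 and later, by 0.143 for 5530601H04Rik and by 0.0693 for Pbdc1. All 6 late KO replicates of both genes lay above all 3 WT replicates.

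Mid1 differed between D5 and G6, which are both labelled KO, in comparisons added after their values were seen. D5 alone had an uneven Cast share at the end of chromosome 6 among the iXist-ChrX_Cast clones. G6 minus D5 was -0.196 for the ratio at days 5 and 7, -1.11 on the log2 scale for total RNA and -1.67 for Xi fragments at days 2 to 7. The total RNA and Xi differences passed in each of 5 other settings and 16 refits without a replicate. The ratio difference passed in 4 of 6 other settings and 1 of 8 refits.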

How the results depend on the processing

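Counts below are of members past the threshold. With no variance trend they were 1 (not 0) for Cast KO against WT at days 5 to 7, 2 (not 1) for the late days, 2 (not 1) for A3 at days 5 to 7 against 2 to 3, 1 (not 0) for D5 and G6 late against days 5 to 7, and 1 (not 0) for divergence in Dom. With R1 and R2 separate they were 2 (not 1), 2 (not 0) and 1 (not 2) for late Cast KO, D5 and G6 late, and divergence in Cast. On the log2 allele scale they were 4 (not 0) for D5 and G6 late and 1 for divergence in Dom. Late Cast KO gave 0 with the deposited gene list or D5 alone. For total RNA at days 2 to 7, D5 alone and G6 alone gave 1 each (not 0), and Mid1 turned from 0.03 to -0.61 with G6 alone. One fit per line gave 5 (not 3) in A3 over time. For Xi over time in Dom WT, DESeq2 and library totals gave 2 (not 1). For late Cast KO, library totals gave 0 (not 1) on Xi and DESeq2 gave 1 (not 0) on Xa. In Dom WT over time, balanced replicates gave 1 (not 2) for the ratio and 0 (not 1) for Xi, and skewed ones 1 (not 4) for total RNA and 0 (not 1) for Xa. These replicates differ in Cast share at the end of chromosome 6 (0.478 to 0.516 against 0.0607 to 0.178) and were chosen after seeing the data. Causes were not tested.

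Leaving out 1 replicate gave 0 to 1 for Cast KO at days 5 to 7 and late, divergence in Dom, late Xi in Cast KO and Xa over time in Dom WT, 1 to 2 for divergence in Cast and Xi over time in Dom WT, and 0 to 2 for A3 at days 5 to 7. Of the counts of members under other settings, 186 stayed within 1.5 times of the reported count, 8 were lower and 15 higher. Without a replicate these numbers were 404, 26 and 8.

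Replicate numbers do not mark a shared origin in the labels. Deviations of same-numbered replicates correlated at -0.0379 to 0.131 (ratio) and -0.724 to -0.441 (total RNA) in Dom, and between Cast WT and its KO clones at -0.335 to 0.297 and -0.294 to 0.790. At days 2 to 7 no member passed between KO and WT with the replicate block, as without it. Late days have 1 replicate per clone and no block was run. Calls over all genes went from 22 to 3 (ratio, Dom, days 5 to 7), and for total RNA from 124 to 6 in Dom and from 59 to 143 in Cast. With crossed numbers the Dom counts were 7 and 1311.

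Over all genes, counts moved by more than 1.5 times in these cases. On the log2 allele scale late KO against WT gave 64 (not 10) in Dom and 113 (not 40) in Cast, days 5 to 7 in Cast 13 (not 3), divergence 72 (not 20) and 134 (not 50), and late against days 5 to 7 gave 107, 16, 201 and 195 (not 1, 1, 2 and 16) in Dom WT, A3, Cast WT and D5 and G6. The line comparison gave 7 without the filter on the uninduced ratio, 11 on the log2 allele scale, 6 with no variance trend and 10 as odds against uninduced cells (not 0). Cast KO at days 5 to 7 gave 1 with R1 and R2 separate, 6 with no variance trend, 29 with D5 alone and 0 with G6 alone, late Cast KO gave 24 with G6 alone, and divergence in Cast 33 with R1 and R2 separate. Late Dom KO gave 5 without the filter on the uninduced ratio. Balanced and skewed Dom WT replicates gave 0 each (not 22) for Dom KO at days 5 to 7 and 6 and 3 (not 20) for divergence. Skewed ones gave 0 (not 10) for late Dom KO, 3677 (not 7991) for total RNA and 128 (not 235) for Xa over time. Late total RNA in KO gave 184 and 443 with DESeq2 and 1379 and 1870 with 1 fit per line (not 0 and 0). At days 2 to 7 the Dom count was 559 with DESeq2, 73 with 1 fit per line and 31 with balanced replicates, and the Cast count 241 with DESeq2, 114 with library totals, 37 without the filter on low counts, 1285 with D5 alone and 273 with G6 alone. Xi fragments between the clones gave 11 (not 45) with R1 and R2 separate. With the replicate block the ratio between the clones gave 4 (not 1) at days 2 to 3 and 1 (not 2) at days 5 to 7, and no call of a member changed.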
